A study of Mus musculus with 24 samples.

Results

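The genes of the smooth muscle and myofibroblast contractile apparatus were followed through sorted colon fibroblasts of mice of 3 genotypes. The list held 32 genes chosen by symbol, of which 30 had a probe set of their own among the 30026 genes measured. Myl6, a myosin light chain, and Pdlim7, an adaptor of the actin cytoskeleton, had probe sets shared with another annotated gene and were not measured here.

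Contractile cells shorten when myosin motors pull on actin filaments, and phosphorylation of the myosin light chain by a dedicated kinase starts each stroke. Many genes of this apparatus carry CArG boxes, short DNA elements bound by serum response factor (Srf), and myocardin (Myocd) is the Srf partner that drives the smooth muscle programme. In the colon, smooth muscle cells and the myofibroblasts that lie under the epithelium express much of this set, whereas other fibroblasts express it at lower levels. Indian hedgehog (Ihh) is made by the epithelium and acts on the cells beneath it, where Gli1 is a widely used target gene of the pathway. Apc restrains Wnt signalling, and its loss in the intestinal epithelium starts adenomas.

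Every group came from mice carrying Villincre-ERT2 with ZsGreen, a tamoxifen-inducible Cre recombinase under the Villin promoter with a fluorescent reporter. The WT group (genotype IhhWT-ApcWT) had 7 arrays, the ApcKO group (IhhWT-ApcKO) had 8, and the IhhKO_ApcKO group (IhhKO-ApcKO) had 9. Villin is expressed in intestinal epithelium, so the Cre driver is not one for the fibroblasts that were profiled. The sorted cells lay in the gate Epcam-, CD45-, CD31- and gp38+ (gp38 is podoplanin), and each RNA sample was hybridised to an Affymetrix GeneChip Mouse Transcriptome Array 1.0. Ages, the inducing treatment and the time after it were not given in the labels. The labels do not say that each array was a separate mouse, so every p-value measures the spread between these samples, which may be technical. Arrays are named by the letter and digit in their sample labels.

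The values are log2 values after RMA, the standard summary of Affymetrix probes, so 1 unit is a doubling of signal. The number of arrays limits the precision. Levels of different genes were not set against each other, only against control probe sets and the median gene. Podoplanin (Pdpn), the gene of the sorting marker, averaged 10.89 in WT, 10.83 in ApcKO and 10.92 in IhhKO_ApcKO arrays. Ptprc, which encodes CD45, lay at 2.94, 2.92 and 2.99 in the same order, within the 2.676 to 3.153 spanned by array medians of the antigenomic background probes. Pecam1, which encodes CD31, averaged 5.77, 5.67 and 5.71, above that range, and the mean of 7 of 8 listed leukocyte markers was 4.97, 4.99 and 5.10. Epithelial markers lay above the antigenomic range: the mean of 12 of 14 listed markers ran from 5.37 to 8.209 over the arrays. On every array this mean lay below 8.214, the 95th percentile of the negative control probe sets. The 7 WT arrays averaged 6.80 (SD 0.86), the 8 ApcKO arrays 7.31 (SD 0.80) and the 9 IhhKO_ApcKO arrays 6.91 (SD 0.92). Some single epithelial markers lay above 8.214. Car1 averaged 9.32 in WT and 10.07 in ApcKO, and in ApcKO Krt8 averaged 8.92 and Tff3 8.49. The other measured epithelial markers averaged below 8.214 in WT and ApcKO. Gli1 was lower in IhhKO_ApcKO arrays than in ApcKO arrays by 1.31 log2 units (SE 0.13, adjusted p 3.76e-06). It ran from 7.98 to 8.20 in WT and from 8.03 to 8.47 in ApcKO. The exception among the 9 IhhKO_ApcKO arrays was B9, at 7.99 against 6.64 to 7.05 in the other 8, so the array labelled B9 lay within the WT range of this Hedgehog target and apart from its group. For IhhKO_ApcKO against ApcKO, the counts of lower and passing contractile genes and the differences in Myocd, Acta2 and Myl9 are therefore given with and without B9. The count of genes called for co-variation with Myocd is also given both ways. Other results include B9 unless stated otherwise.

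The promoters are shown because Myocd acts through Srf at CArG boxes. RefSeq promoters of build GRCm38.p6, from 250 bases before to 50 bases after each annotated start, were found for 28 of the 32 listed genes, and Myocd, Myh11, Actg2 and Tagln had no entry. The strict CArG box (CC, then 6 letters that are each A or T, then GG) reads as the same class of sequence on both strands. It was present in 5 of the 28 genes (17.9%), against 488 of 27025 genes (1.81%) in the whole promoter table. Myl9, Cnn2, Vcl and Srf were the 4 measured genes with a box, and the other was Myl6. The capitals mark the box. The Myl9 stretch is chr2:156775214-156775407, the Cnn2 stretch chr10:79988350-79988599 and the Vcl stretch chr14:20929148-20929382, all on the plus strand and ending before the gene's first annotated start. The Srf stretch is chr17:46556215-46556244 on the minus strand and runs from its first box to its second.
Myl9: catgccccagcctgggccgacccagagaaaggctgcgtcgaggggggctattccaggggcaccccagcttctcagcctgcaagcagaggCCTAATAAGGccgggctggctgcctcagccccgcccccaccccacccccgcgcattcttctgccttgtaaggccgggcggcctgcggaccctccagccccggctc
Cnn2: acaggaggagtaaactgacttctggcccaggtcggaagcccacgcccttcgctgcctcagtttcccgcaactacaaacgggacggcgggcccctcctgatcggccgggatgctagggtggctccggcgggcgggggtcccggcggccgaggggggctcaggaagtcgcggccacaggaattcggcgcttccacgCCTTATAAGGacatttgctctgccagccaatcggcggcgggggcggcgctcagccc
Vcl: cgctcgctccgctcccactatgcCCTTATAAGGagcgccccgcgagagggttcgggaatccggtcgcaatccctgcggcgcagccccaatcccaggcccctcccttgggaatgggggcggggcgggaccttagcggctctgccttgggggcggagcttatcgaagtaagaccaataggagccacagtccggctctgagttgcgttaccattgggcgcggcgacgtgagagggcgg
Srf: CCATATAAGGagcggcctcgCCATAAAAGG

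These matches are a description of the letters and do not show that Srf binds there. Distances are counted from the start that the promoter table uses, which in Myl9 and Vcl lies downstream of the first annotated start where the printed stretch ends. The box started 161 bases before that start in Myl9, 56 bases before it in Cnn2 and 227 bases before it in Vcl. Srf carried 2 boxes, beginning 82 and 62 bases before the start that the promoter table uses. That start lies downstream of the first annotated start of Srf. Both boxes lie inside the annotated span of the gene, chr17:46546838-46558267. A gene without a match, such as Acta2, only lacks these strict letters in this window. The genes with a box did not share 1 pattern of expression: between IhhKO_ApcKO and ApcKO, Myl9 differed by -0.52 log2 units, Cnn2 by -0.15, Srf by -0.07 and Vcl by -0.03.

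The main comparison asked how the contractile genes of the fibroblasts differed when Ihh was deleted together with Apc rather than Apc alone. In IhhKO_ApcKO arrays 27 of the 30 genes had a lower mean than in ApcKO arrays, against 43.4% of all genes. Their median difference was -0.20 log2 units, against 0.01 over all genes. At an unadjusted p under 0.05 (limma), 16 of the 30 were lower, against 2.39% of all genes, and 0 were higher, against 2.61%. After Benjamini-Hochberg adjustment over all 30026 genes 0 of the 30 passed at 0.05, where 15 genes in all (0.05%) did. In 0 of the 30 did the arrays of these genotypes separate without overlap, which 0.0233% of all genes did. Without array B9, 3 of the 30 passed: Myocd, Myl9 and Acta2, with 52 genes passing in all. With B9 left out, 27 of the 30 again had a lower mean. In that fit 17 were lower at an unadjusted p under 0.05 (limma), against 2.29% of all genes.

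The mean of the 30 genes was taken on each array. WT arrays averaged 7.75 ± 0.17 (SD, n = 7) by this measure. For ApcKO arrays it was 7.83 ± 0.09 (SD, n = 8), and IhhKO_ApcKO arrays stood at 7.61 ± 0.14 (SD, n = 9). All 9 IhhKO_ApcKO arrays lay below the ApcKO mean, and 5 lay below every ApcKO array. The difference was -0.22 log2 units, and none is given a p-value because the genes were chosen with results known. The letter of the array name follows genotype except in A9, an ApcKO array, and B9, and the labels do not say what it marks. With the letter as a block, so that B9 is set against the other arrays of its letter, the difference in the mean was -0.075, Myocd differed by -0.18 and Myl9 by -0.12, while Acta2 (0.046), Actg2 (0.030) and Cnn1 (0.10) changed sign. In these bulk samples fewer contractile cells and less of these RNAs per cell cannot be told apart.

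**Figure D1:**
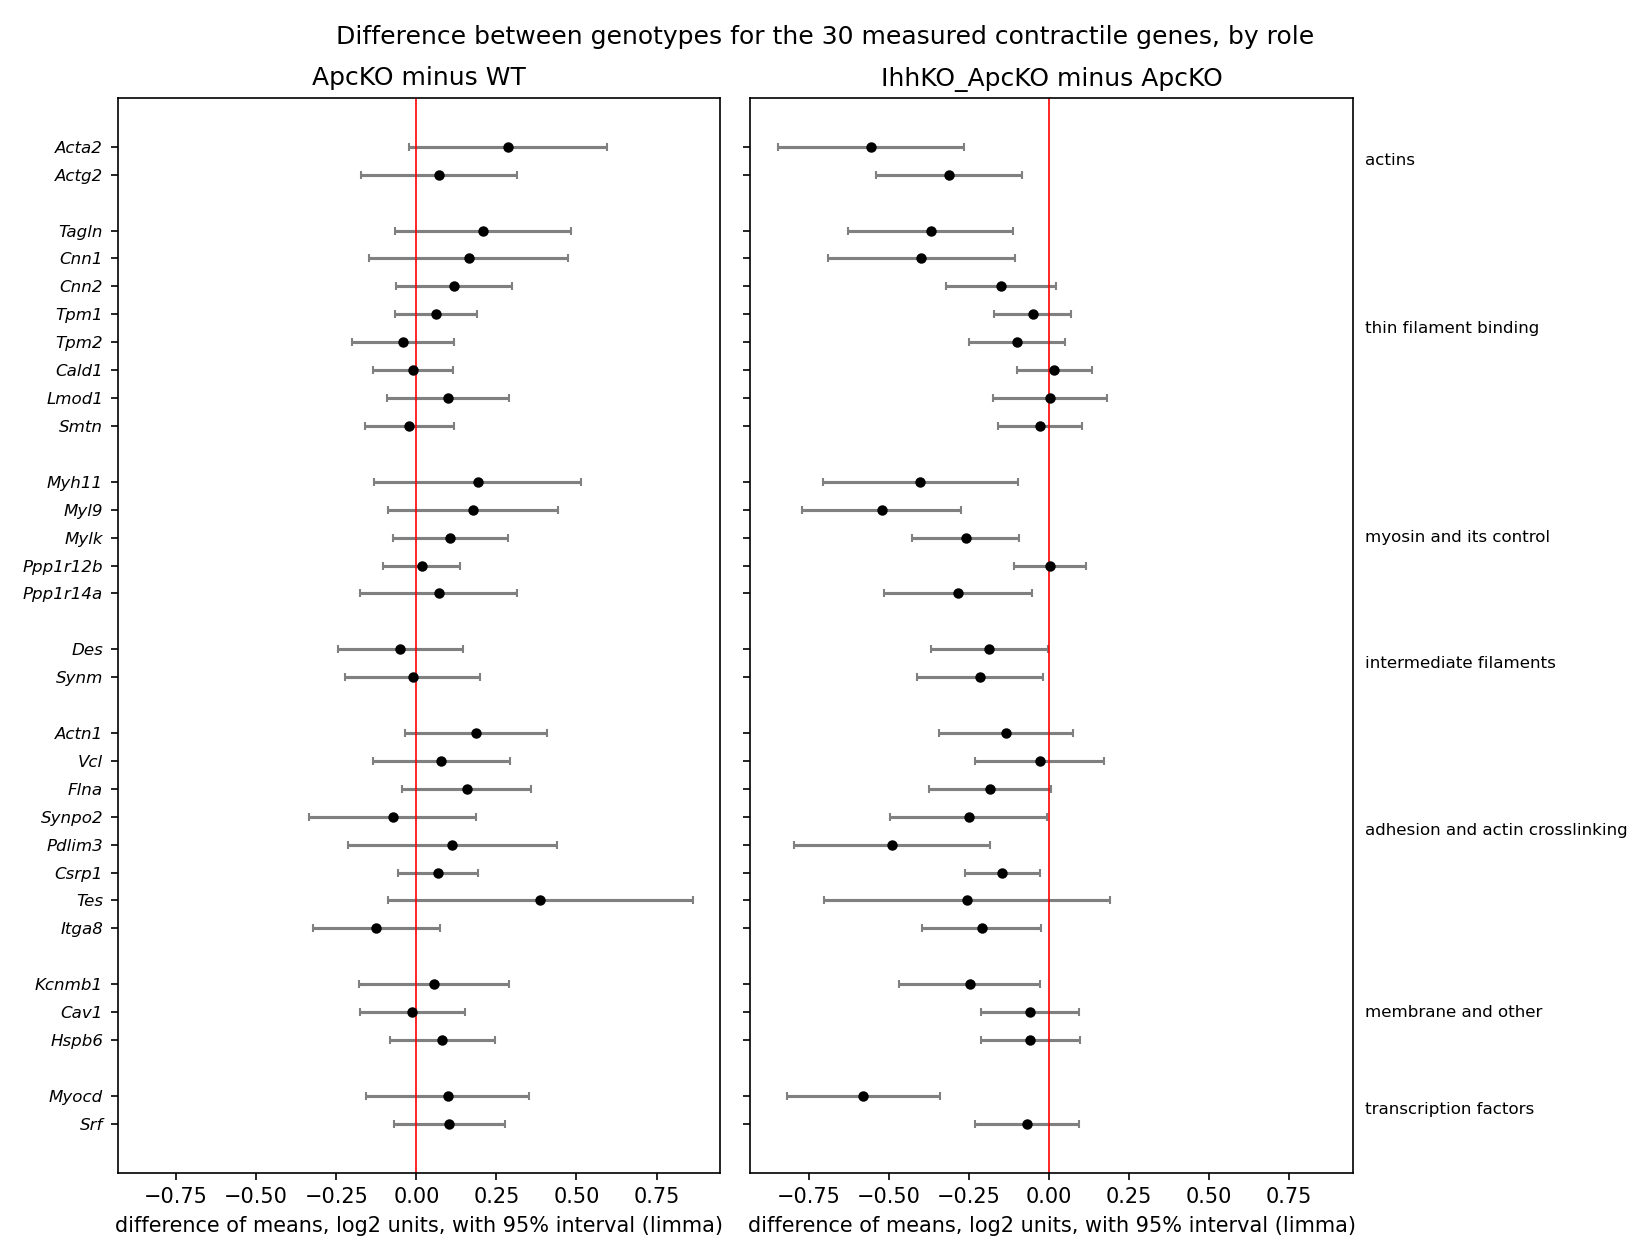
Differences between genotypes for the 30 measured contractile genes, grouped by role, in log2 units (horizontal axis) with 95% intervals from limma. The left panel shows ApcKO minus WT and the right panel IhhKO_ApcKO minus ApcKO; red lines mark 0. Most points of the right panel lie left of 0, led by Myocd at -0.58, Acta2 at -0.56 and Myl9 at -0.52, whereas Cald1, Lmod1 and Ppp1r12b lie at 0.02, 0.00 and 0.00.

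Myocd, the coactivator of the programme, had the smallest p of the 30 genes in this comparison. Its level ran from 6.20 to 6.89 (median 6.53) in WT, from 6.34 to 6.79 (median 6.67) in ApcKO and from 5.38 to 6.46 (median 6.16) in IhhKO_ApcKO. In 8 of 9 IhhKO_ApcKO arrays Myocd lay below every ApcKO array, and the exception was again B9, at 6.46. The difference from ApcKO was -0.58 log2 units (SE 0.12, 95% interval -0.82 to -0.34), a 1.49-fold lower signal, with an adjusted p of 0.059. Without B9 it was -0.63 with an adjusted p of 0.0136. The lowest values came from C7 at 5.38 and C9 at 5.68. Every Myocd value lay below 8.214, the 95th percentile of the negative control probe sets. The value on C7 also lay below the median gene, at 5.608.

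Srf, the DNA-binding partner, gave a different picture. Srf ran from 7.63 to 8.13 (median 8.03) in WT, from 7.90 to 8.17 (median 8.03) in ApcKO and from 7.65 to 8.19 (median 7.997) in IhhKO_ApcKO. These ranges overlapped almost wholly. Srf differed between IhhKO_ApcKO and ApcKO by -0.07 log2 units (SE 0.08, 95% interval -0.23 to 0.09), so differences of the size seen for Myocd lie outside its interval.

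Both smooth muscle actins were lower in IhhKO_ApcKO at an unadjusted p under 0.05. Acta2, alpha smooth muscle actin and the customary myofibroblast marker, ran from 9.40 to 10.15 (median 9.74) in ApcKO and from 8.74 to 9.75 (median 9.17) in IhhKO_ApcKO. In 8 of 9 IhhKO_ApcKO arrays it lay below every ApcKO array, with B9 at 9.75 the exception. The difference was -0.56 (SE 0.14, adjusted p 0.224), a 1.47-fold lower signal, and without B9 it was -0.63 with an adjusted p of 0.0497. Actg2, the gamma actin of visceral smooth muscle, ran from 8.001 to 8.63 (median 8.30) in ApcKO and from 7.73 to 8.32 (median 7.98) in IhhKO_ApcKO. Its groups overlapped more, with 5 of 9 IhhKO_ApcKO arrays below every ApcKO array and a difference of -0.31 (SE 0.11, adjusted p 0.681). These actins are near-identical in sequence, and cross-hybridisation between their probe sets was not tested.

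Among the myosin genes, Myl9 stood out. Myl9 encodes the regulatory light chain whose phosphorylation switches smooth muscle myosin on. It ran from 8.66 to 9.04 (median 8.98) in ApcKO and from 7.78 to 8.79 (median 8.49) in IhhKO_ApcKO. Again 8 of 9 IhhKO_ApcKO arrays lay below every ApcKO array, and B9, at 8.79, did not. The difference was -0.52 (SE 0.12, adjusted p 0.149), a 1.44-fold lower signal, and -0.57 with an adjusted p of 0.0473 without B9. Mylk, the kinase that phosphorylates this light chain, ran from 6.90 to 7.32 (median 7.15) in ApcKO and from 6.67 to 7.09 (median 6.87) in IhhKO_ApcKO. All 9 IhhKO_ApcKO arrays lay below the ApcKO mean of Mylk and 5 below every ApcKO array, with a difference of -0.26 (SE 0.08, adjusted p 0.488).

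Myh11, the smooth muscle myosin heavy chain, ran from 7.43 to 8.17 in ApcKO and from 6.89 to 7.93 in IhhKO_ApcKO, with a difference of -0.40 (SE 0.15, adjusted p 0.705). Only C7 and C9 lay below every ApcKO array, at 6.99 and 6.89. Ppp1r14a, an inhibitor of myosin phosphatase, was lower by 0.28 at an unadjusted p of 0.018, and Ppp1r12b, a targeting subunit of that phosphatase, differed by 0.00 (95% interval -0.11 to 0.12). In all, 4 of the 5 measured myosin genes were lower at an unadjusted p under 0.05.

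Of the 8 genes grouped here as binding the thin (actin) filament, 2 were lower at an unadjusted p under 0.05. Genes of actin crosslinking and adhesion are counted apart below. Tagln, transgelin, ran from 7.89 to 8.54 (median 8.26) in ApcKO and from 7.41 to 8.19 (median 7.87) in IhhKO_ApcKO. All 9 IhhKO_ApcKO arrays lay below the ApcKO mean of Tagln and 5 below every ApcKO array, and the difference was -0.37 (SE 0.13, adjusted p 0.602). Cnn1, the calponin of differentiated smooth muscle, ran from 6.98 to 7.85 (median 7.45) in ApcKO and from 6.51 to 7.49 (median 7.09) in IhhKO_ApcKO, a difference of -0.40 (SE 0.14, adjusted p 0.682). The groups overlapped over much of the range of Cnn1. Cnn2, the more widely expressed calponin, differed by -0.15, Tpm2 by -0.10, Tpm1 by -0.05 and Smtn, smoothelin, by -0.03. Cald1, caldesmon, differed by 0.02 and Lmod1, a nucleator of actin filaments in smooth muscle, by 0.00. The Cald1 interval ran from -0.10 to 0.13, and differences of the size seen for Tagln or Cnn1 lie outside it.

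Both intermediate filament genes were lower at an unadjusted p under 0.05. Des, desmin, differed by -0.19 (SE 0.09) and Synm, synemin, by -0.22 (SE 0.10), with adjusted p-values of 0.982 and 0.931. In each, 4 of 9 IhhKO_ApcKO arrays lay below every ApcKO array.

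All 8 measured genes of adhesion and actin crosslinking had lower means, and 4 of them, Pdlim3, Csrp1, Itga8 and Synpo2, were lower at an unadjusted p under 0.05. Pdlim3, which links alpha-actinin to the cytoskeleton, ran from 8.34 to 8.98 (median 8.85) in ApcKO and from 7.47 to 8.69 (median 8.36) in IhhKO_ApcKO. Its lowest ApcKO value, 8.34 on B8, stood well below the other ApcKO arrays, and 4 of 9 IhhKO_ApcKO arrays lay below it. The difference was -0.49 (SE 0.15, adjusted p 0.427). Synpo2, an actin-bundling protein, differed by -0.25, Itga8, the alpha chain of an integrin of contractile stromal cells, by -0.21 and Csrp1, a LIM protein of the actin cytoskeleton, by -0.15. Flna, filamin A, at -0.18, Actn1, an alpha-actinin, at -0.14, Vcl, vinculin, at -0.03 and Tes, testin, at -0.26 had unadjusted p-values of 0.056, 0.195, 0.769 and 0.251. The Tes interval was the widest of the 30, from -0.70 to 0.19. Of the remaining genes, Kcnmb1, the beta subunit of a calcium-activated potassium channel, was lower by 0.25 at an unadjusted p of 0.029. Cav1, caveolin, and Hspb6, a small heat-shock protein, each differed by -0.06.

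**Figure D2:**
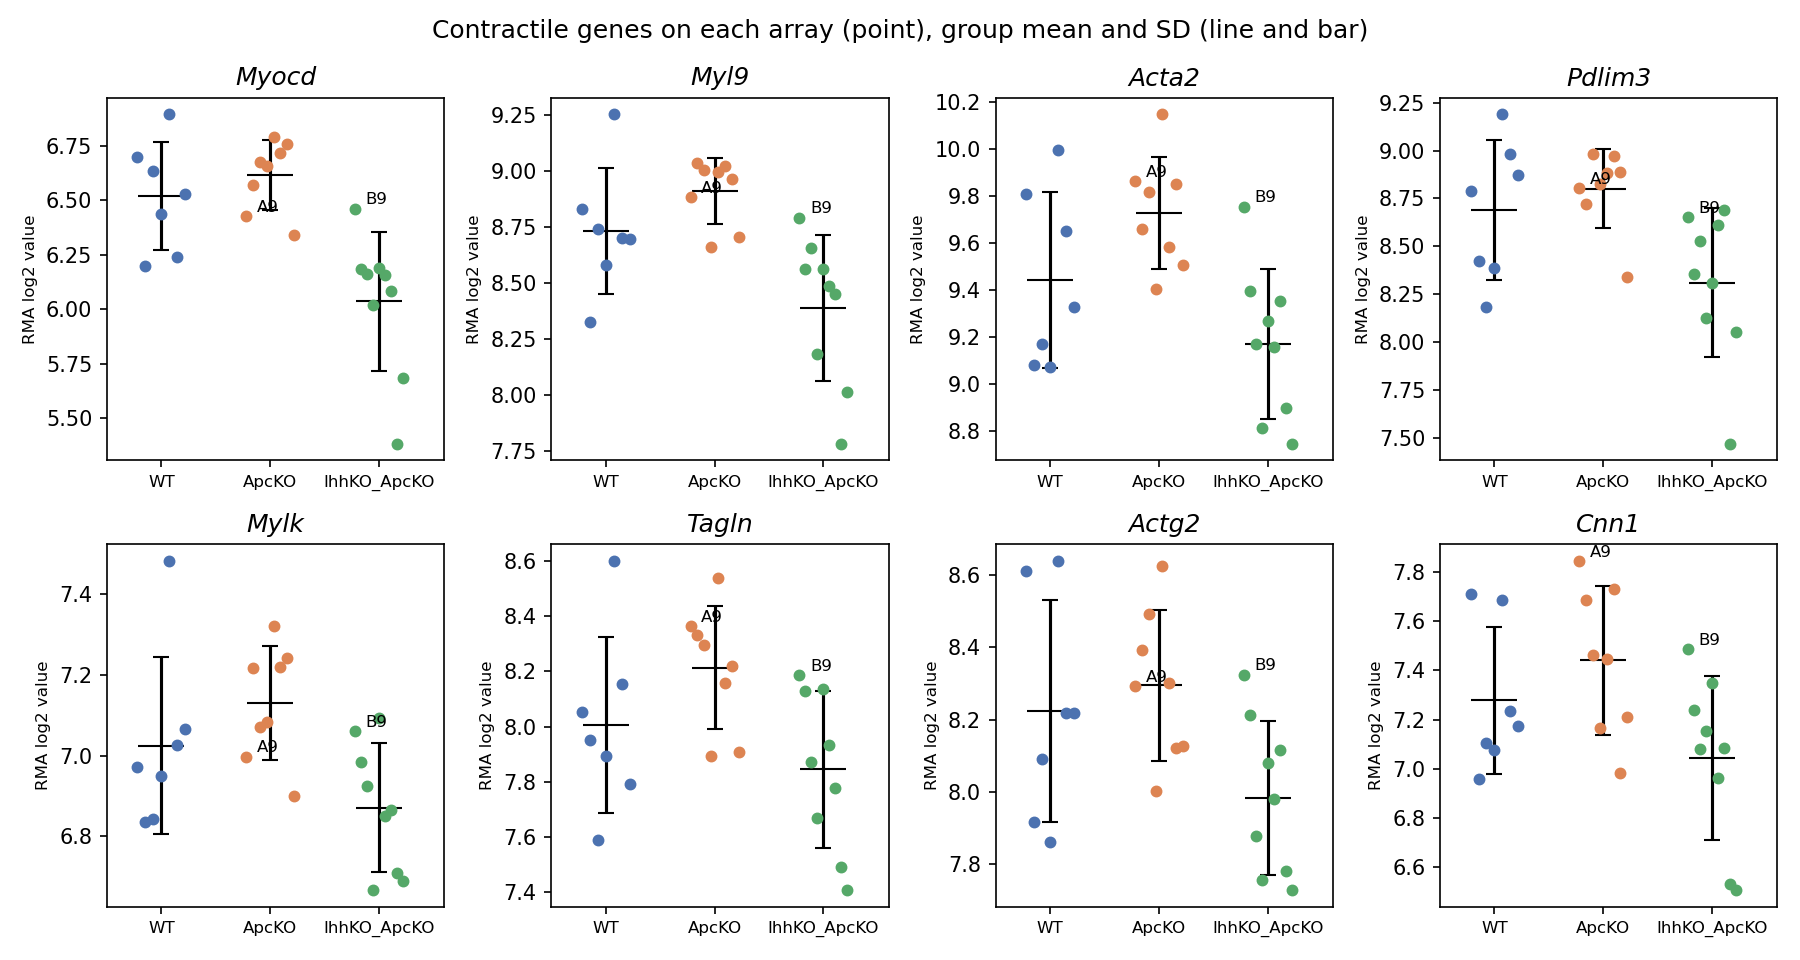
RMA log2 values (vertical axes, each with its own range) of the 8 contractile genes with the smallest p for IhhKO_ApcKO minus ApcKO. Each point is 1 array, lines are genotype means and bars are SDs; arrays A9 and B9, whose code letter differs from the rest of their group, are named. B9 is the highest IhhKO_ApcKO array for Myocd (6.46), Myl9 (8.79) and Acta2 (9.75), while the other 8 lie below every ApcKO array.

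Deletion of Apc alone was compared with WT next. No contractile gene passed in this comparison: 0 of 30 had an adjusted p under 0.05, as did 0 of all 30026 genes (0%). At an unadjusted p under 0.05 the count was also 0 of 30, against 4.41% of all genes. In ApcKO 22 of the 30 genes had a higher mean and 8 a lower one, whereas 60.4% of all genes were lower. The median difference was 0.08 log2 units, against -0.02 over all genes.

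Acta2 came closest to the threshold. It ran from 9.07 to 9.997 (median 9.33) in WT, so the WT arrays spanned most of the range of the ApcKO arrays. Its difference was 0.29 (SE 0.15, 95% interval -0.02 to 0.59, adjusted p 0.972). Tes, testin, differed by 0.39 (SE 0.23), Tagln by 0.21 (SE 0.13), Actn1 by 0.19 (SE 0.11), Myl9 by 0.18 (SE 0.13), Flna by 0.16 (SE 0.10) and Cnn2 by 0.12 (SE 0.09). Itga8, at -0.12 (SE 0.10), was the largest difference downward. Myocd differed by 0.10 (SE 0.12) and Srf by 0.10 (SE 0.08). These 9 genes had adjusted p-values of 0.972.

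The WT arrays were the more spread: the mean over the 30 genes had an SD of 0.17 in WT and 0.09 in ApcKO. Array A5 was the highest WT array for 23 of the 30 genes, and A2 was the lowest for 13. Leaving out A5 raised the difference between ApcKO and WT in the mean of the 30 genes from 0.08 to 0.14.

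IhhKO_ApcKO arrays were also compared with WT, a comparison that shares its arrays with the others and so adds no independent replicate. In IhhKO_ApcKO 21 of the 30 genes had a lower mean, against 54.9% of all genes, and the median difference was -0.15, against -0.01 over all genes. At an unadjusted p under 0.05, 8 of the 30 were lower, against 4.55% of all genes, and 0 were higher, against 3.08%. No contractile gene had an adjusted p under 0.05, where 25 genes in all (0.0833%) did.

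Myocd was again first, with 8 of 9 IhhKO_ApcKO arrays below every WT array and a difference of -0.48 (SE 0.12, adjusted p 0.157). It passed without A9 and B9 (-0.53, adjusted p 0.0497). Itga8 came next: it ran from 5.32 to 6.10 (median 5.66) in WT and from 5.14 to 5.50 (median 5.35) in IhhKO_ApcKO. All 9 IhhKO_ApcKO arrays lay below the WT mean of Itga8, and the difference was -0.33 (SE 0.09, adjusted p 0.226). Des ran from 7.04 to 7.50 (median 7.12) in WT and from 6.54 to 7.36 (median 6.96) in IhhKO_ApcKO. In 7 of 9 IhhKO_ApcKO arrays it lay below every WT array, with a difference of -0.24 (SE 0.09, adjusted p 0.515). Pdlim3 differed by -0.38, Myl9 by -0.35, Synpo2 by -0.32, Actg2 by -0.24 and Synm by -0.23, with adjusted p-values from 0.446 to 0.647. Srf differed by 0.04 (SE 0.08, 95% interval -0.13 to 0.20).

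The order of the genotype means differed between genes, and no test compared these orders. Acta2 was 9.44 in WT, 9.73 in ApcKO and 9.17 in IhhKO_ApcKO, so ApcKO had the highest mean, and no difference between neighbours in that order passed after adjustment. Itga8 was 5.68, 5.55 and 5.34, and Des 7.18, 7.13 and 6.95, with WT the highest in both. ApcKO minus WT was -0.12 (SE 0.10) for Itga8 and -0.05 (SE 0.09) for Des, and neither passed after adjustment. Lmod1 was 5.85, 5.95 and 5.95, and Cald1 8.45, 8.44 and 8.46.

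Beyond genotype, the contractile genes moved together from array to array. After each genotype's mean was removed, the 435 pairs among the 30 genes had a median Pearson r of 0.44, and 360 pairs (82.8%) were positive. Among 500500 pairs of genes taken at regular steps through the alphabet the median was 0.03 and 53.9% were positive. With each array first centred on its median gene, the median over the 435 pairs was 0.51. These r values describe 24 arrays that share amplification and normalisation, and no p-value is attached.

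Against the mean of the other 29 genes, Myh11 and Myl9 each had r = 0.92 and Mylk r = 0.89, followed by Tagln at 0.87. The other myosin genes, Ppp1r14a and Ppp1r12b, had r = 0.58 and 0.52. The closest single pairs were Mylk with Actn1 at 0.92, Acta2 with Actg2 at 0.91 and Myl9 with Myocd at 0.88. In all, 25 of the 30 genes had r above 0.5 with the mean of the others. Des at 0.08, Hspb6 at -0.09, Srf at -0.12 and Tes at -0.20 had the lowest values, and Lmod1 lay at 0.39. Itga8, like Des lower in IhhKO_ApcKO than in ApcKO at an unadjusted p under 0.05, had r = 0.81 with the mean of the others.

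**Figure D3:**
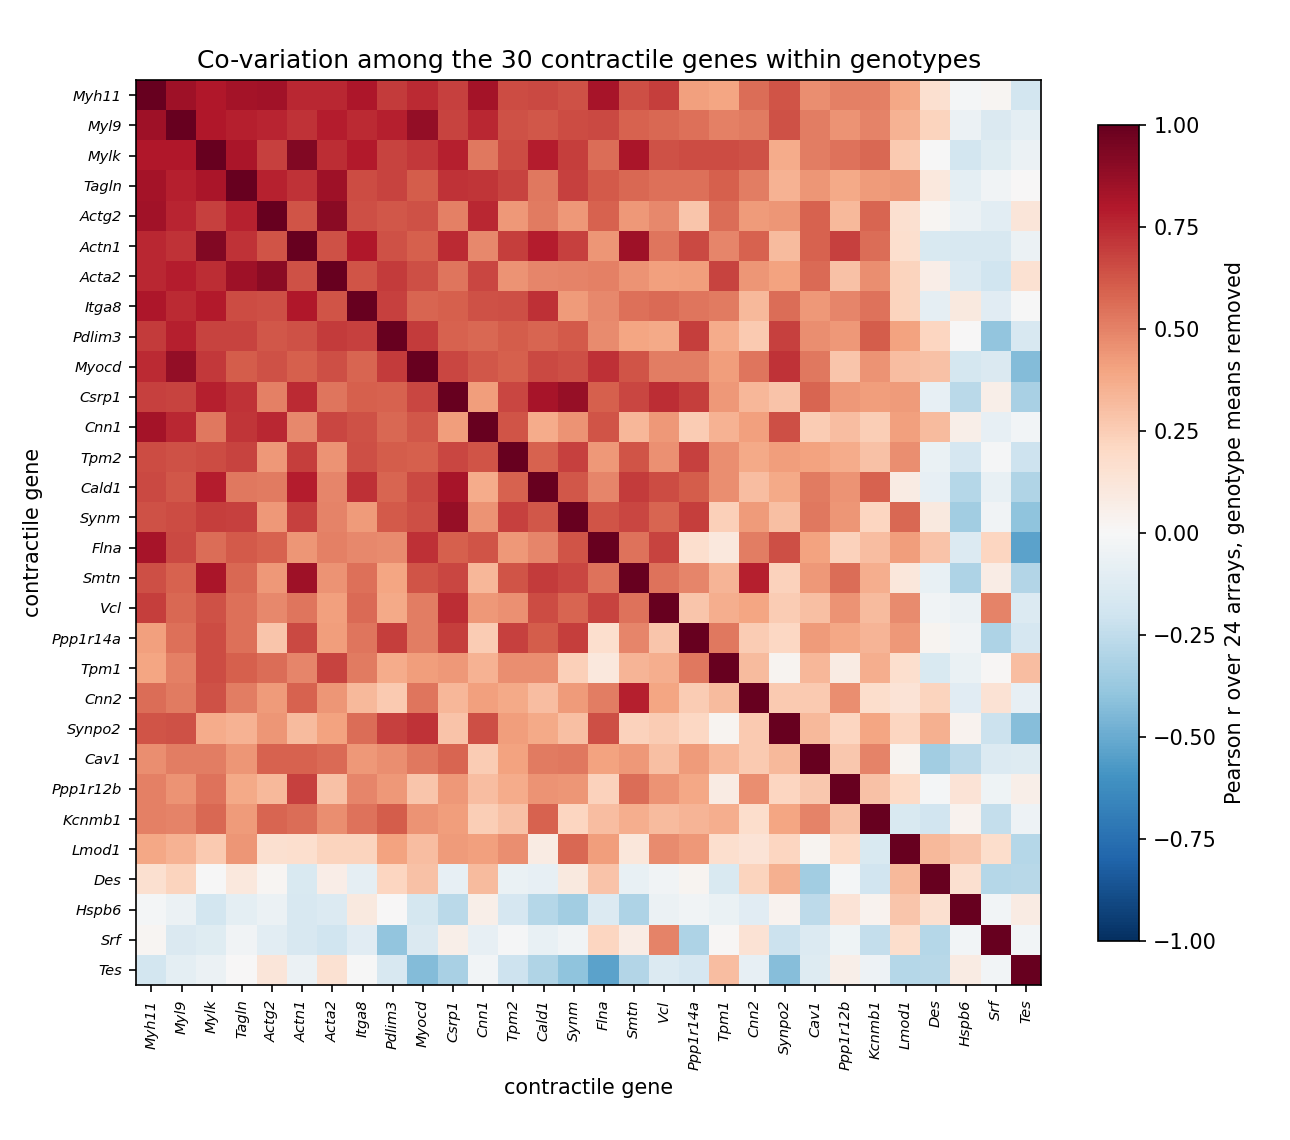
Pearson r between each pair of the 30 contractile genes over 24 arrays after genotype means were removed (colour scale from -1 to 1), ordered by r with the mean of the other genes. A block of positive r values fills most of the map from Myh11 at the top left, while Des, Hspb6, Srf and Tes form a pale or blue margin.

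The genes outside the list that followed the mean of the 30 most closely, over the same 24 arrays, were Tgfb1i1 (r = 0.82), Tcf4 (0.81), Zdhhc14, Fat4, Kcnma1, Arhgap28, Col12a1, Anxa6, Plekhh2 and Pcdh7 (0.77). Kcnma1 encodes the pore-forming partner of Kcnmb1, and Tgfb1i1 encodes a focal adhesion protein also called Hic-5.

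Co-variation with Myocd was then tested gene by gene, with genotype in the model so that differences between groups did not enter. Of the other 29 genes, 26 had a positive slope on Myocd, against 34.1% of all genes. At an adjusted p under 0.05 a slope was called in 5 of the 29, all positive, against 0.2% of all genes (0.14% for positive slopes alone). At an unadjusted p under 0.05 positive slopes were found in 22 of the 29, against 5.45% of all genes. The median slope was 0.42 log2 units per log2 unit of Myocd, against -0.08 over all genes.

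Myl9 followed Myocd most tightly. Its slope was 0.92 (SE 0.11, adjusted p 4.93e-04), and it passed in each of the 24 fits that left out 1 array, with adjusted p-values up to 0.0124. With genotype means removed, r was 0.88. Over all 24 arrays, where differences between genotypes do enter, Pearson's r was 0.93 and Spearman's rank correlation 0.89, each with a permutation p of 1e-05, the smallest that 100000 resamples can give. Adjusted over the 29 genes compared with Myocd, these became 9.67e-05 and 2.9e-04. Without C7 and C9, the arrays farthest from the median of Myocd, r was 0.86. Within groups r was 0.87 in WT, 0.50 in ApcKO and 0.96 in IhhKO_ApcKO.

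Myh11 had a slope of 0.97 (SE 0.18, adjusted p 0.0272), Synpo2 0.74 (SE 0.15, adjusted p 0.0481), Flna 0.57 (SE 0.12, adjusted p 0.0495) and Pdlim3 0.91 (SE 0.19, adjusted p 0.0495). Mylk missed the threshold at 0.48 (SE 0.11, adjusted p 0.0700). The Myh11 slope passed in 20 of the 24 fits that left out 1 array, those of Synpo2 and Flna in 8 each and that of Pdlim3 in 4. Without C7 and C9, r with Myocd was 0.63 for Myh11 and Pdlim3, 0.45 for Synpo2, 0.40 for Flna and 0.76 for Mylk. The slopes without these arrays were 0.94 (SE 0.26) for Myh11, 0.66 (SE 0.28) for Pdlim3, 0.37 (SE 0.20) for Synpo2, 0.43 (SE 0.16) for Flna and 0.65 (SE 0.15) for Mylk, with adjusted p-values from 0.176 to 0.465. Tes went the other way, with a slope of -0.83 at an unadjusted p of 0.026 (adjusted p 0.212), and Hspb6 (-0.11) and Srf (-0.09) had small negative slopes.

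The count of 5 depended on single arrays and on array-wide measures. It was 0 without C7 and C9, where Myl9 kept a slope of 0.87 with an adjusted p of 0.155, and ran from 1 without A5, B8 or C9 to 9 without B9 or C7. Array medians varied with Myocd within genotypes (r = -0.59), and with the array median as a covariate the count was 0, with Myl9 at 0.83 (adjusted p 0.0890). With each array centred on its median gene the count was 20 of 29, against 3.21% of all genes. C7 and C9 also stood high among IhhKO_ApcKO arrays in the mean of the leukocyte markers (5.33 and 5.44, against 4.89 to 5.14 in C1 to C6 and 5.39 in B9) and in that of the epithelial markers (7.67 and 8.18, against 5.37 to 7.40 and 7.68), and C9 in that of blood endothelium (5.95, against 4.82 to 5.20 in the other 8). Within genotypes these means had r = -0.36, -0.30 and -0.29 with Myocd. With the epithelial mean as a covariate the count was again 5 of 29, against 0.0566% of all genes. Myl9 (slope 1.01, adjusted p 2.12e-05), Myh11 (adjusted p 0.0414) and Pdlim3 (0.0389) passed there. Synpo2 (adjusted p 0.106) and Flna (0.121) did not. The part of the leukocyte and endothelial means in the slopes was not tested. The mean of the 8 pericyte markers also moved with Myocd (r = 0.53), and with it as a covariate 1 gene passed, Myl9 at 0.94 (adjusted p 0.0103). These markers did not move as one. Rgs5 (0.84), Pdgfrb (0.64), Cspg4 (0.30), Abcc9 (0.29) and Kcnj8 (0.18) had positive slopes on Myocd. Those of Notch3 (-0.14), Higd1b (-0.17) and Ndufa4l2 (-0.12) were negative, and no single pericyte marker passed after adjustment.

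**Figure D4:**
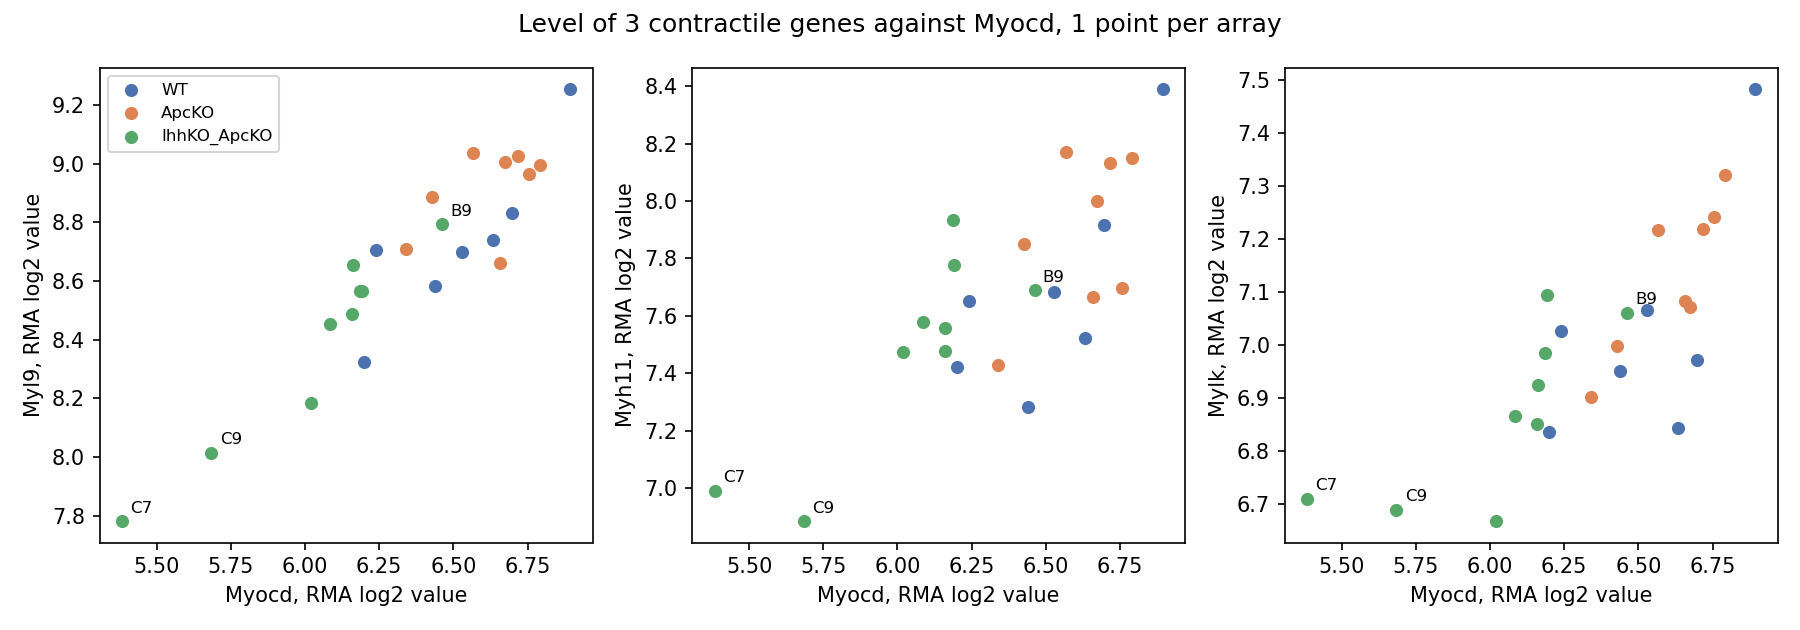
RMA log2 values of Myl9, Myh11 and Mylk (vertical axes) against Myocd (horizontal axis), 1 point per array, coloured by genotype, with arrays B9, C7 and C9 named. Over all 24 arrays Myl9 rises with Myocd (r = 0.93), with C7 and C9 at the low end, while the 8 ApcKO arrays alone span a short range and have r = 0.50.

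Other index genes were set beside Myocd. On Acta2 the slope was called in 3 of 29 contractile genes, Actg2, Tagln and Myl9, against 0.00999% of all genes, so these were the 3 genes called in all. On Gli1, the Hedgehog target, the slope within genotypes was called in 0 of 30 genes, against 0.0167% of all genes, and 22 of the 30 slopes were positive, against 43.1%. Within genotypes Gli1 had r = 0.20 with the mean of the 30 genes. Much of the spread of Gli1 within genotypes came from B9, at 7.99. The SD of Gli1 was 0.42 in IhhKO_ApcKO arrays, against 0.08 in WT and 0.14 in ApcKO. The called count stayed at 0 without B9, but r and the count of positive slopes were not repeated without it.

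Other genes of the pathway were taken from a list of 62, of which 53 were measured. It included Srf cofactors, myosin phosphatase subunits, calcium and cyclic nucleotide signalling, nonmuscle actin and myosin, and focal adhesion genes. In IhhKO_ApcKO against ApcKO 43 of the 53 had a lower mean, against 43.4% of all genes, with a median difference of -0.04, and 0 passed after adjustment. At an unadjusted p under 0.05, 6 were lower, against 2.39% of all genes, and 0 higher, against 2.61%. The 6 were Nexn (-0.36), which binds actin, Fhl2 (-0.24), a LIM cofactor, Myh10 (-0.17), a nonmuscle myosin, Tpm3 (-0.16), Itga7 (-0.12) and Ppp1r12c (-0.10). The Srf cofactors Mrtfa and Mrtfb differed by 0.02 and -0.11. In ApcKO against WT 22 of the 53 were lower and 31 higher, where 60.4% of all genes were lower. At an unadjusted p under 0.05 only Klf5 (0.41), a zinc finger factor, and Actb (0.12), beta actin, differed, against 4.41% of all genes, and 0 passed after adjustment.

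Markers of other cells were measured beside these genes. The mean of the 8 pericyte markers was 6.385, 6.37 and 6.38 in WT, ApcKO and IhhKO_ApcKO, with ranges of 6.25 to 6.50, 6.24 to 6.58 and 6.24 to 6.52. It had r = 0.55 with the mean of the contractile genes within genotypes. Single pericyte markers went both ways. In IhhKO_ApcKO against WT 5 were lower and 3 higher, from -0.20 to 0.32. At an unadjusted p under 0.05 (limma) 2 were lower, against 4.55% of all genes, and 2 higher, against 3.08%. In IhhKO_ApcKO against ApcKO 3 were lower and 5 higher, from -0.17 to 0.18. The 7 genes taken as defining mature smooth muscle (Myh11, Des, Actg2, Cnn1, Smtn, Lmod1 and Kcnmb1) are all among the 30 and are counted with them above; they averaged 7.38, 7.45 and 7.22. Their group means lay above the array medians of the antigenomic probes. However, Myh11, Des, Cnn1, Lmod1 and Kcnmb1, and Actg2 in IhhKO_ApcKO, averaged below 8.214, the 95th percentile of the negative control probe sets. The group means of Myocd, Mylk, Synpo2 and Itga8, among other contractile genes, also lay below it. Those of Itga8 in ApcKO and IhhKO_ApcKO lay below the median gene, at 5.608. The mean of 7 of 8 listed fibroblast markers was 10.61, 10.555 and 10.49, with r = 0.33 with the contractile genes. Epithelial markers had r = 0.01 with them, and with the epithelial mean as a covariate Myocd differed between IhhKO_ApcKO and ApcKO by -0.62 (adjusted p 0.0411). The part of smooth muscle cells and pericytes in these results was not tested.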

How the data were processed

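RNA of 24 sorted fibroblast samples was hybridised to 24 arrays. The authors deposited log2 values from RMA, per the submitters' processing notes; which RMA software was run, and on which build, is not given in the sources used here. The table held 72688 probe sets, and 0 columns had no sample. After 6732 controls were left out, 30468 of 65956 transcript clusters had 1 gene in the platform annotation, 2282 several and 33206 none; those 2 kinds were not named. RefSeq updated 827 symbols, and the probe set with the highest mean stood for the 348 genes with more than 1, giving 30026 genes. No filter on dim genes was applied: the median gene lay at 5.608, the median of 5222 negative controls at 4.649 and their 95th percentile at 8.214.

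Genotypes were taken from sample titles. Differences and slopes were fitted with limma 3.58.1 (lmFit, eBayes) in R 4.3.3 on all 24 arrays in 1 model, with Benjamini-Hochberg adjustment over all genes and a threshold of 0.05. The fit was tested on simulated data. Members and lists were chosen with earlier results of these data known. Statistics are given in full for the 8 members with the smallest p of a comparison, with Myocd and Srf, and for the 6 of the Myocd slope; Myh11 in the comparison of IhhKO_ApcKO with ApcKO lies outside that rule and was added after its values were seen. The genes most like the members were the 10 with the highest r with their mean. Alternatives were median centring, the mean of all probe sets of a gene, genes above the median gene, trended robust variances, array weights, only the groups compared, each array left out, A9 and B9 left out, the code letter as a block and the epithelial marker mean as a covariate. Leaving out C7 and C9, and the pericyte mean and array median as covariates, were added after seeing the data, as was every repeat of the count at unadjusted p.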

Additional observations from a re-analysis of the deposited data

Results flagged for a closer look

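Dixon's test was applied to 96 groups of arrays (each contractile gene, the mean of the genes and Gli1 in each genotype) and marked 4 single arrays, where chance marks about 1 in 20 groups. WT array A5 stood above the other WT arrays for Cnn2 (7.12) and for Mylk (7.48). ApcKO array B8 stood below the other ApcKO arrays for Pdlim3 (8.34). IhhKO_ApcKO array B9 stood above the other IhhKO_ApcKO arrays for Gli1 (7.99).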

How the results depend on the processing

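The mean of the members kept its direction in all 3 comparisons under every alternative but the code letter as a block, where it was smaller, at -0.075, for IhhKO_ApcKO against ApcKO and turned to 0.0053 against WT. That block rests on A9 and B9, the only arrays whose letter differs from their group's. Under it, for ApcKO minus WT, Flna was -0.026, Cnn2 -0.068, Myocd -0.092 and Srf -0.0032. In IhhKO_ApcKO against ApcKO, Acta2 was 0.046, Actg2 0.030 and Cnn1 0.10. In IhhKO_ApcKO against WT, Myl9 was 0.030, Des 0.35, Actg2 0.10 and Srf -0.41. Leaving out 1 array, Srf in that comparison ran from -0.016 to 0.076, and it was below 0 without A6 (-0.0041) and without A8. The cause of these reversals was not tested.

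The count of members passing in IhhKO_ApcKO against ApcKO, 0 as reported, was 1 (Myocd) among genes above the median gene, with array weights, without A9 and B9, and with the epithelial covariate. Leaving out 1 array gave 0 to 3. Against WT it was 1 without A9 and B9. The 16 members lower at unadjusted p under 0.05 became 11 to 17, with 11 without C7, 12 without C9 and 12 with median centring. The slope count of 5 was 20 with median centring, 3 on Acta2 and 0 without C7 and C9. As covariates, the array median gave 0, the pericyte mean 1 and the epithelial mean 5. Leaving out 1 array gave 1 to 9. With the mean of all probe sets the slope count was 3. The members' own values did not change there, because 0 of them had 2 or more probe sets. For ApcKO minus WT and the slope on Gli1 the count stayed at 0 in every alternative.

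No paired analysis was possible because the genotypes share no sample code. Dim genes cannot be told from background: the choice of control probes moves that level from 2.676 to 4.649.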
